A study of Homo sapiens with 9 samples.

Results

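The Notch receptors, ligands, nuclear effector and targets examined here were 10 genes, taken by their symbols from a table of 60683 genes: the receptors NOTCH1, NOTCH2 and NOTCH3, the ligands JAG1, JAG2 and DLL4, the DNA-binding effector RBPJ, and the targets HES1, HEY1 and NRARP. Each symbol was found once, and all 10 genes had enough reads to be tested. Expression was measured by bulk RNA-seq in 9 cultures of Hep3B, a cell line from a human liver cancer, kept for 24 hours in 6-well plates. The groups were vehicle (DMSO) at 20% O2, vehicle at 1% O2, and 32-134D, an inhibitor of the hypoxia-inducible factors (HIFs), at 1% O2, with 3 replicates each. The replicates are described as biological, and all 9 libraries come from the same cell line, so the spread between them is a spread between cultures. The dose of 32-134D was 5 μM by the study's methods and is not in the labels, and no culture with 32-134D at 20% O2 was analysed here, so the compound was compared only in hypoxia.

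Notch signalling passes between touching cells. A ligand of the Jagged or Delta family on one cell engages a Notch receptor on its neighbour, ADAM proteases and γ-secretase then cut the receptor, and the freed intracellular domain enters the nucleus, where it binds RBPJ and Mastermind co-activators at the promoters of HES and HEY repressor genes. Without that domain RBPJ recruits co-repressors. In the liver, JAG1 and NOTCH2 are best known for their part in bile duct formation, and inherited loss of either gene causes Alagille syndrome.

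Library totals ran from 6013980 to 40549699 counts, with the smallest in replicate 2 of vehicle at 20% O2. Replicate 3 of 32-134D stood apart from its group, since the pairs it formed had a chi-square per degree of freedom of 32.5 and 36.4, against 1.62 to 12.02 for the other pairs of replicates. Each member's calls were therefore also computed without each library. All 10 hepatocyte and hepatoma markers (such as ALB and AFP) were detected, with summed levels from 12130 to 20510 CPM (counts relative to the TMM-scaled library total, on a per-million scale). Single markers changed. APOB had means of 4487 CPM in vehicle at 20% O2, 405.5 in vehicle at 1% O2 and 3520 with 32-134D. In hypoxia 2 of the 10, APOB and AFP, were called lower and 0 higher. With 32-134D APOB was called higher and TTR, FGB and TF lower, with TF at 1545, 1505 and 584 CPM in replicates 1, 2 and 3. The 5 HIF target genes used as a check (CA9, EPO, VEGFA, ANGPTL4 and NDRG1) were all called higher in vehicle at 1% O2 than at 20% O2, and all called lower with 32-134D than with vehicle at 1% O2.

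In hypoxia 2 receptors were lower, while 1 ligand, the nuclear effector and 2 targets were higher. HES1, HEY1, DLL4 and RBPJ were higher in vehicle at 1% O2 than in vehicle at 20% O2, while NOTCH3 and NOTCH2 were lower. With 32-134D at 1% O2, the same 6 genes were called in the other direction against vehicle at 1% O2. A gene was called when the Benjamini-Hochberg false discovery rate (FDR) of edgeR's quasi-likelihood test, adjusted over 22672 genes, was below 0.05 and its fold change was above 1.5. By this rule 4 of the 10 members were higher in hypoxia, against 19.5% of all genes tested, and 2 were lower, against 20.3%. With 32-134D 2 were higher, against 16.2%, and 4 were lower, against 13.7%. Both comparisons use the vehicle libraries at 1% O2, so opposite signs in them are not independent of each other. The median log2 fold change of the 10 members was 0.27 in hypoxia and -0.36 with 32-134D, and that of all genes tested was 0.001 and -0.01. In bulk RNA, fewer cells expressing a gene and less of its RNA per cell cannot be told apart.

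**Figure D1:**
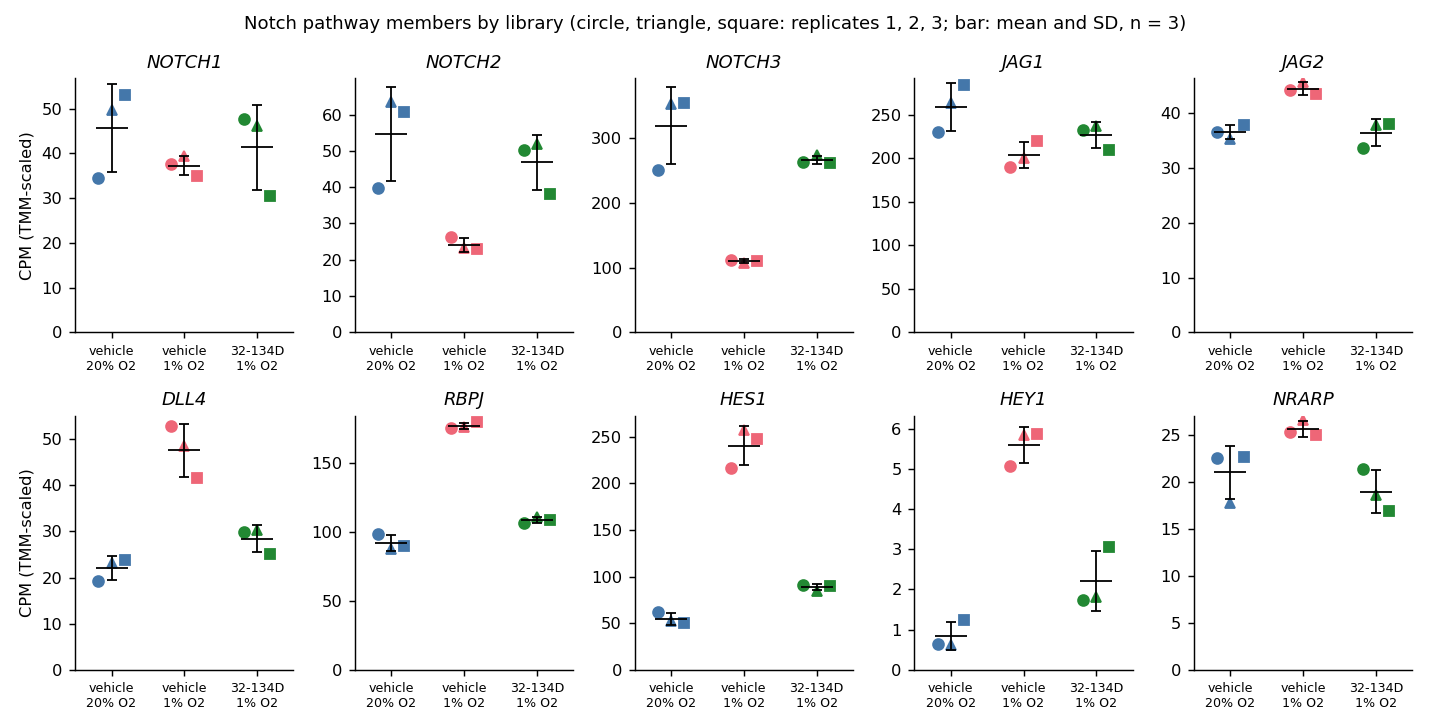
Levels of the 10 members in each library, in CPM after TMM scaling on linear axes that start at 0, with 1 panel per gene and replicates 1, 2 and 3 drawn as circle, triangle and square beside the group mean and SD (n = 3). NOTCH3 and NOTCH2 dip at 1% O2 with vehicle, while DLL4, RBPJ, HES1 and HEY1 peak there, and the 32-134D libraries of these 6 genes lie between the means of the other groups.

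Whether the libraries of 2 groups overlapped was also read for each member. In hypoxia 6 members were higher and 3 were lower without any overlap, against 32.3% and 28.1% of all genes tested, and NOTCH1 alone overlapped. Between 32-134D and vehicle at 1% O2, 2 members were higher and 6 lower without overlap, against 25.4% and 30.8%, and NOTCH1 and JAG1 overlapped. Scaling by total library size in place of TMM moved the median of all genes by -0.21 in hypoxia and by 0.18 with 32-134D, and the share of higher genes among all calls from 49.0% to 34.5% and from 54.2% to 72.0%. Under that scaling the 6 hypoxia calls among the members stood, and the DLL4 and RBPJ calls with 32-134D were lost (log2 fold changes of -0.56 and -0.52), as their sizes no longer passed the 1.5-fold threshold.

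Among the receptors, NOTCH3 and NOTCH2 fell in hypoxia and rose with 32-134D, and NOTCH1 passed neither test. NOTCH3, the most abundant receptor here per exon length, read 250.4, 353 and 355 CPM in replicates 1, 2 and 3 of vehicle at 20% O2, 112, 108 and 111 CPM in vehicle at 1% O2, and 263, 274 and 263 CPM with 32-134D. All libraries of vehicle at 1% O2 lay far below all of the others, and the 32-134D libraries lay within the range of vehicle at 20% O2. Its log2 fold change was -1.53 (SE 0.11, edgeR FDR 2e-08) in hypoxia, a level 2.89-fold lower, and 1.27 (SE 0.11, edgeR FDR 2.82e-07) with 32-134D, 2.42-fold higher. NOTCH3 lies on chromosome 19 from 15159038 to 15200981 in GRCh38, on the minus strand.

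NOTCH2, the receptor tied to bile duct development, followed with a wider spread. It read 39.7, 63.6 and 60.7 CPM in vehicle at 20% O2, 26.2, 23.2 and 22.9 CPM in vehicle at 1% O2, and 50.3, 51.9 and 38.2 CPM with 32-134D. The group at 1% O2 with vehicle did not overlap either of the others, and the other groups overlapped each other. The log2 fold changes were -1.17 (SE 0.16, edgeR FDR 1.38e-05) in hypoxia and 0.96 (SE 0.15, edgeR FDR 0.000109) with 32-134D. NOTCH2 (chromosome 1, 119911553 to 120069626, minus strand) has near-identical partial copies, so its count is uncertain where reads could be split. The listed copies NOTCH2NLA, NOTCH2NLB, NOTCH2NLC and NOTCH2NLR held 18, 29, 35 and 1 reads over the 9 libraries, against 9243 for NOTCH2.

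NOTCH1, the prototype of the family, did not pass the test. It read 34.6, 49.6 and 53.0 CPM in vehicle at 20% O2, 37.5, 39.3 and 35.0 CPM in vehicle at 1% O2, and 47.7, 46.1 and 30.5 CPM with 32-134D, so all 3 groups overlapped. The hypoxia log2 fold change was -0.30 with a 95% interval from -0.62 to 0.03 (edgeR FDR 0.146), and that with 32-134D was 0.16 with an interval from -0.16 to 0.47 (edgeR FDR 0.458). The lowest library at 20% O2 was replicate 1 and the lowest with 32-134D was replicate 3.

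**Figure D2:**
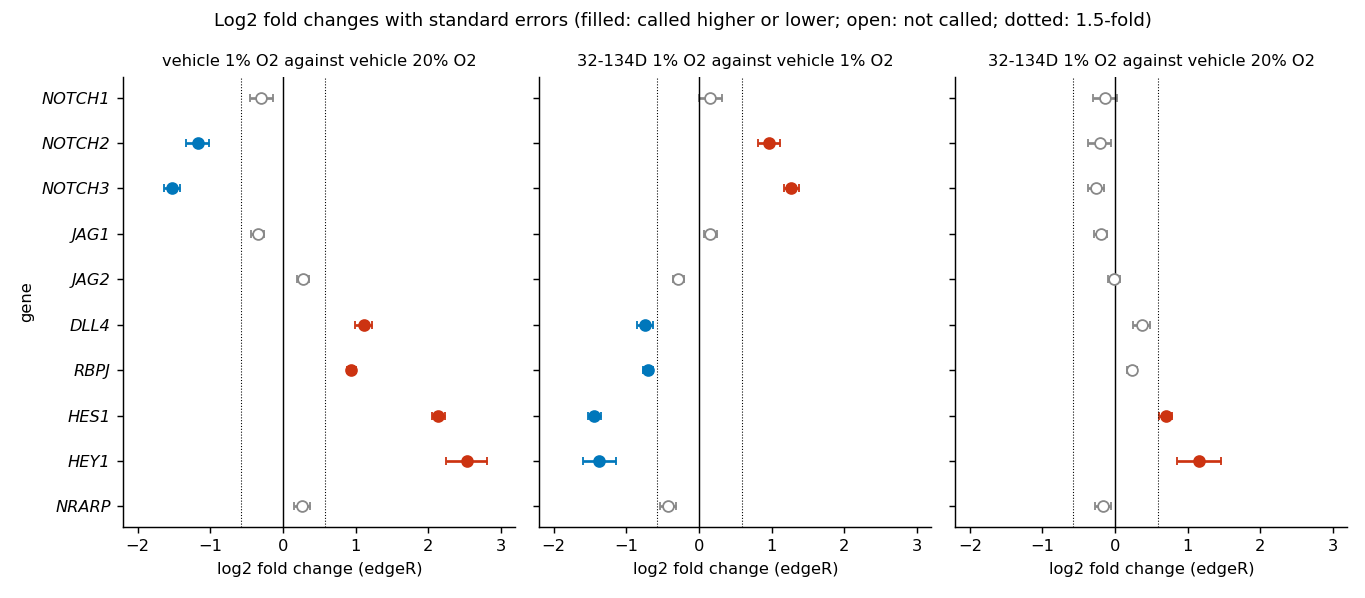
Log2 fold changes of the 10 members (rows) from edgeR with their standard errors in the 3 comparisons (columns), with filled points for called genes, open points for genes not called and dotted lines at 1.5-fold. Receptors lie left of 0 and DLL4, RBPJ, HES1 and HEY1 right of 0 in hypoxia, with the reverse with 32-134D, while HES1 and HEY1 are the filled points against vehicle at 20% O2.

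Fold changes over all genes varied with exon length, so each receptor was also set beside genes of like length. The 2289 genes within 1.25-fold of the exon length of NOTCH3 (9.39 kb) had a median hypoxia log2 fold change of -0.07, and 7.91% of them were lower than NOTCH3. For NOTCH2, the longest member at 16.8 kb of exon, the 479 genes of like length had a median of -0.53 in hypoxia and 0.49 with 32-134D, and 25.3% of them were lower than NOTCH2 in hypoxia. In an alternative chosen after seeing the data, each library's trends with the length and the GC content of transcripts were taken out before the fit. NOTCH3 then kept both calls, at -0.998 (SE 0.08, edgeR FDR 1.75e-07) and 0.88 (SE 0.08, edgeR FDR 1.02e-06). NOTCH2 lost both, at -0.48 (edgeR FDR 0.00595) and 0.33 (edgeR FDR 0.0445), and NOTCH1 changed sign to 0.31 (edgeR FDR 0.109) and -0.29 (edgeR FDR 0.127). The source of the length trend was not tested.

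**Figure D3:**
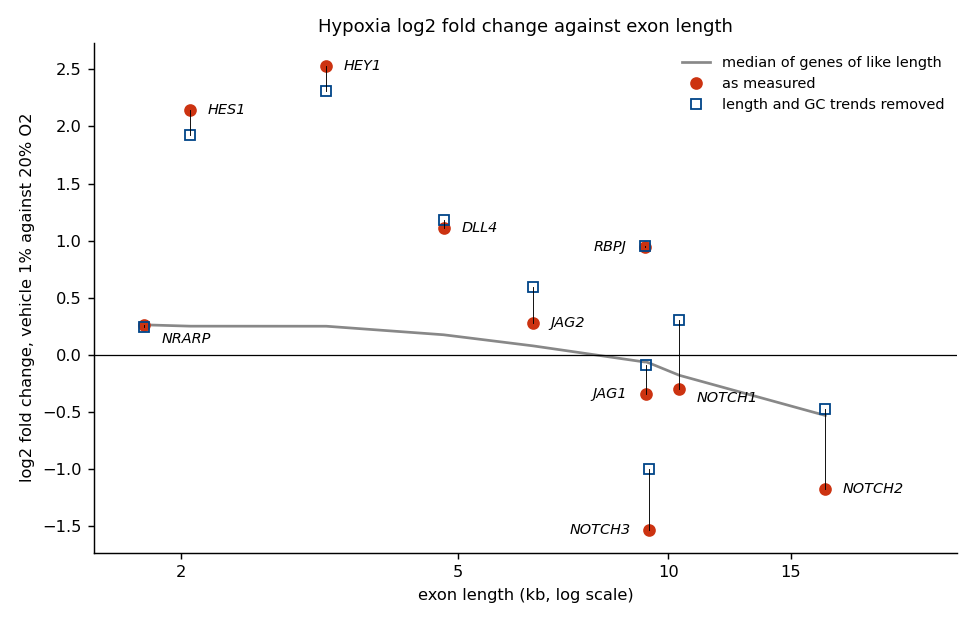
Hypoxia log2 fold change of the 10 members (vertical axis) against their exon length in kb (horizontal axis, log scale), as measured (filled circles) and with length and GC trends removed (open squares), with a grey line joining the medians of all genes of like length at each member's length. HES1, HEY1, DLL4 and RBPJ stand above the line and NOTCH3 well below it, and NOTCH2, as measured at -1.17, lies below the line at -0.53. With trends removed NOTCH2 is at -0.48, where no change is 0.

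Per exon length, the 3 receptors together were lowest in vehicle at 1% O2. These levels, and those of the ligands below, use CPM from which the length and GC trends were not removed. Their summed level was 41.7 ± 8.06 CPM per kb in vehicle at 20% O2, 16.8 ± 0.306 in vehicle at 1% O2 and 35.2 ± 1.82 with 32-134D (SD, n = 3 each), and the vehicle libraries at 1% O2 (16.6 to 17.1 CPM per kb) lay below all others (32.4 to 46.5). NOTCH3 made up 81.7% ± 0.622 of the sum at 20% O2, 70.1% ± 1.26 at 1% O2 and 80.8% ± 3.03 with 32-134D (SD, n = 3 each). The share of NOTCH1 was 10.6% ± 0.379, 21.4% ± 1.24 and 11.3% ± 2.15 in the same groups, so a receptor whose own level did not pass the test took a larger share of a smaller sum. For both shares the libraries of vehicle at 1% O2 overlapped neither of the other groups. An exact permutation test of 3 against 3 libraries cannot give a p below 0.1, so no test of these sums and shares could pass the threshold. Summed stellate and fibroblast markers, genes of cells in which NOTCH3 is well known, ran from 36.7 to 40.5 CPM in vehicle at 20% O2, from 17.9 to 19.1 in vehicle at 1% O2 and from 35.9 to 44.3 with 32-134D. Of these 8 markers 3 had at most 3 counts in every library, with ACTA2 at 0. PDGFRB made up most of the sum, with means of 27.2, 10.1 and 22.0 CPM, and it was called lower in hypoxia and higher with 32-134D, as were COL1A1 and COL1A2. LUM, with means of 2.43, 3.76 and 8.40 CPM, was not called in hypoxia (0.61, edgeR FDR 0.112), was higher with 32-134D than in vehicle at 1% O2 (1.14, edgeR FDR 0.00216) and was also higher than at 20% O2 (1.75, edgeR FDR 0.00165), and RGS5 was not called. The part of these markers in the NOTCH3 result was not tested.

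DLL4 rose among the ligands in hypoxia and fell with 32-134D, while the more abundant JAG1 changed by less than the fold change threshold. DLL4, the Delta ligand best known from endothelial tip cells, read 19.2, 23.2 and 23.8 CPM in vehicle at 20% O2, 52.9, 48.4 and 41.6 CPM in vehicle at 1% O2, and 30.0, 30.2 and 25.1 CPM with 32-134D. The 3 groups did not overlap, with 32-134D between the vehicle groups. The log2 fold changes were 1.11 (SE 0.12, edgeR FDR 1.36e-06) in hypoxia and -0.74 (SE 0.11, edgeR FDR 6.39e-05) with 32-134D. DLL4 lies on chromosome 15 from 40929333 to 40939073 in GRCh38, on the plus strand. Of 10 endothelial markers, 7 had at most 3 counts in every library, with ERG, ROBO4, TEK and VWF at 0. The 10 summed to between 2.98 and 4.81 CPM at 20% O2, 9.995 and 11.6 CPM in vehicle at 1% O2, and 4.75 and 6.36 CPM with 32-134D. Most of this sum was ESAM, with means of 2.87, 10.7 and 4.56 CPM, which was called higher in hypoxia (1.85, edgeR FDR 5.27e-07) and lower with 32-134D (-1.23, edgeR FDR 1.54e-05). PECAM1, with means of 0.862, 0.211 and 0.860 CPM, was called the other way, at -1.88 (edgeR FDR 0.0065) and 1.93 (edgeR FDR 0.00362), and TIE1 was not called. Their part in the DLL4 result was not tested.

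JAG1, the ligand mutated in Alagille syndrome and the most abundant ligand here per exon length, read 229.6, 263 and 284 CPM in vehicle at 20% O2, 190.3, 200.3 and 220.3 CPM in vehicle at 1% O2, and 233, 237 and 209 CPM with 32-134D. The vehicle groups did not overlap, but the difference was small, at a log2 fold change of -0.35 (SE 0.09, edgeR FDR 0.00387), under the fold change threshold. With 32-134D the log2 fold change was 0.15 (SE 0.09, edgeR FDR 0.174), and it turned to -0.10 (edgeR FDR 0.321) with length and GC trends removed. JAG2, its close relative, had the opposite sign with 36.6, 35.3 and 37.7 CPM at 20% O2, 44.2, 45.7 and 43.4 CPM in vehicle at 1% O2, and 33.6, 37.7 and 38.0 CPM with 32-134D. Its log2 fold changes of 0.28 (SE 0.08, edgeR FDR 0.00867) and -0.29 (SE 0.08, edgeR FDR 0.00671) passed the FDR but not the fold change threshold. With length and GC trends removed the hypoxia value of JAG2 was 0.59 (edgeR FDR 1.07e-05), just past the threshold.

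Per exon length, the 3 ligands summed to 38.2 ± 3.56 CPM per kb in vehicle at 20% O2, 38.9 ± 0.351 in vehicle at 1% O2 and 36.0 ± 2.11 with 32-134D (SD, n = 3 each), and the vehicle groups overlapped. The DLL4 share of this sum was 12.1% ± 0.468 at 20% O2, 25.8% ± 3.33 in vehicle at 1% O2 and 16.6% ± 0.801 with 32-134D, with no overlap between the groups. The JAG1 share was 72.9% ± 1.03, 56.4% ± 3.72 and 67.6% ± 0.859 in the same groups, again without overlap.

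**Figure D4:**
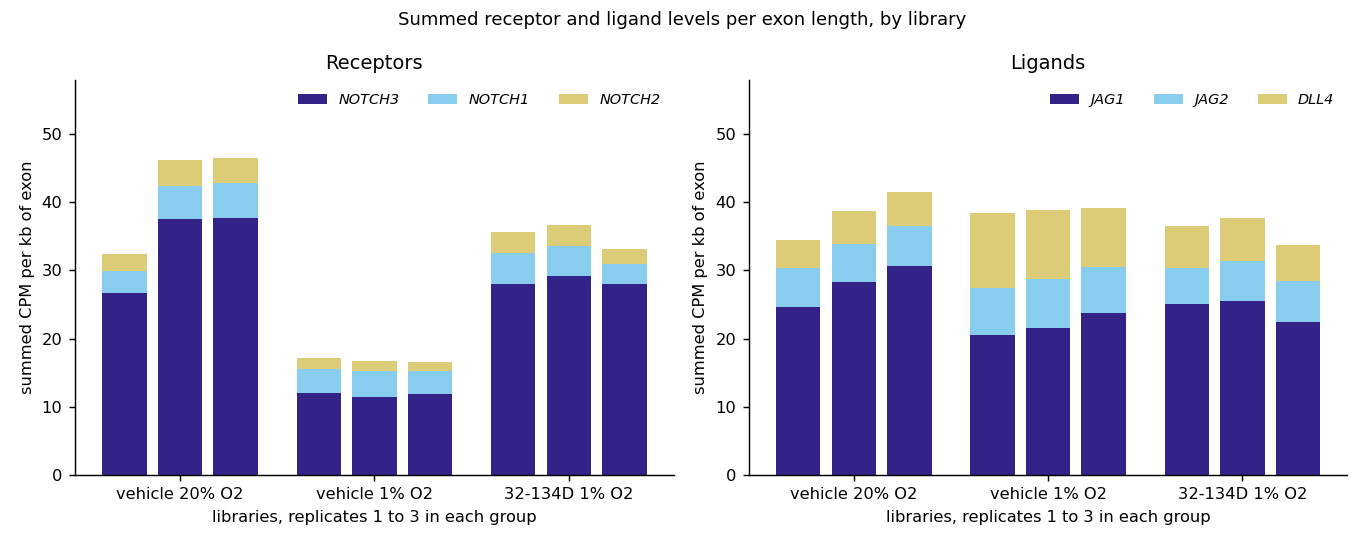
Levels per exon length (CPM per kb, linear axis from 0) of the receptors (left) and ligands (right) stacked for each of the 9 libraries, with replicates 1 to 3 from left to right in each group. The receptor stacks shrink to between 16.6 and 17.1 CPM per kb in vehicle at 1% O2 and are mostly NOTCH3 throughout, while the ligand stacks stay between 33.7 and 41.5 CPM per kb with a thicker DLL4 layer in vehicle at 1% O2.

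RBPJ, the DNA-binding protein through which all 4 mammalian Notch receptors signal, was among the most evenly measured members. It read 98.0, 87.3 and 89.8 CPM in vehicle at 20% O2, 174.9, 175.5 and 179.2 CPM in vehicle at 1% O2, and 106.2, 110.5 and 108.2 CPM with 32-134D. The 3 groups did not overlap, and the log2 fold changes were 0.94 (SE 0.07, edgeR FDR 2.5e-08) in hypoxia and -0.70 (SE 0.07, edgeR FDR 8.26e-07) with 32-134D. The 2367 genes of like length had a median hypoxia value of -0.06, and with length and GC trends removed RBPJ stayed at 0.95 and -0.83. RBPJ lies on chromosome 4 from 26163455 to 26435131 in GRCh38, and its pseudogenes RBPJP2, RBPJP5, RBPJP6 and RBPJP7 held no reads.

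Of the targets, HES1 and HEY1 had the largest changes of all members. HES1, a basic helix-loop-helix repressor and a classic direct target of the Notch-RBPJ complex, read 61.6, 52.3 and 50.0 CPM in vehicle at 20% O2, 217, 258 and 248 CPM in vehicle at 1% O2, and 90.9, 85.0 and 90.0 CPM with 32-134D. No libraries of different groups overlapped. The log2 fold change was 2.14 (SE 0.09, edgeR FDR 1.81e-10) in hypoxia, 4.41-fold higher, and -1.44 (SE 0.09, edgeR FDR 1.54e-08) with 32-134D, 2.72-fold lower. Genes of like length had a median of 0.25 in hypoxia, and 97.2% of them were lower than HES1. HES1 lies on chromosome 3 from 194136145 to 194138732 in GRCh38, on the plus strand.

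HEY1, a related repressor, was the scarcest member. Its counts were 9, 4 and 41 in vehicle at 20% O2, 192, 124 and 170 in vehicle at 1% O2, and 61, 54 and 67 with 32-134D, or 0.645, 0.628 and 1.25 CPM, 5.09, 5.85 and 5.88 CPM, and 1.73, 1.82 and 3.06 CPM. The 3 groups did not overlap, although replicate 3 was the highest both at 20% O2 and with 32-134D. The log2 fold changes were 2.53 (SE 0.28, edgeR FDR 2.38e-06) in hypoxia and -1.37 (SE 0.23, edgeR FDR 0.000191) with 32-134D, and both calls stood without any single library. NRARP, an ankyrin repeat protein that is itself a Notch target and limits the stability of the Notch intracellular domain, did not rise by this rule. It read 22.6, 17.7 and 22.7 CPM, then 25.3, 26.5 and 25.0 CPM, then 21.4, 18.6 and 16.9 CPM in the same groups, with log2 fold changes of 0.26 (SE 0.11, edgeR FDR 0.0633) and -0.43 (SE 0.11, edgeR FDR 0.00464). The level in vehicle at 1% O2 was above all other libraries, and neither difference reached 1.5-fold.

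Promoter sequence is shown for HES1, DLL4 and NOTCH3, a target, a ligand and a receptor that kept their hypoxia calls under every scaling and without any single library. The 250 bases before the RefSeq gene start (GRCh38.p14) were taken for 9 of the 10 members, all but HEY1. Each window was searched on both strands for the core of the HIF response element (ACGTG or GCGTG) and for the core of the RBPJ site (TGGGAA), which do not overlap each other in these windows. Capitals mark matches to either core, read 5′ to 3′ on the strand of the gene, so that CACGC is the first core on the other strand.
HES1 (chr3:194135898-194136147, plus strand): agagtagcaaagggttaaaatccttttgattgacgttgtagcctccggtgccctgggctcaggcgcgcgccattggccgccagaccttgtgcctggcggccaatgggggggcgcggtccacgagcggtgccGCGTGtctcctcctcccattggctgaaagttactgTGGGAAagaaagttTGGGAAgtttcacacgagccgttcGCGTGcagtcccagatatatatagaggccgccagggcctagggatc
DLL4 (chr15:40929090-40929339, plus strand): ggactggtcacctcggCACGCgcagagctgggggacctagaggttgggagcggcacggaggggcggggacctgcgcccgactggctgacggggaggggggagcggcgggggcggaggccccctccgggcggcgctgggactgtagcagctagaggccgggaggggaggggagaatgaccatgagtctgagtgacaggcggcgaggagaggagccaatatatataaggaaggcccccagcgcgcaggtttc
NOTCH3 (chr19:15200996-15201245, minus strand): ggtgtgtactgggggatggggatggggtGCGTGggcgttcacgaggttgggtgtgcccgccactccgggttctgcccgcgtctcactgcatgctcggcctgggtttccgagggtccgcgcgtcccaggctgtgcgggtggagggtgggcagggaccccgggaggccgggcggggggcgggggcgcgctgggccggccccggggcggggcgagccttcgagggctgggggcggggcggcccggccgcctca
HES1 held 2 matches to the RBPJ core, 84 to 79 and 70 to 65 bases before the start, and no other member of the 9 held any. Of all 35116 RefSeq promoter windows searched the same way, 20.8% held at least 1 such match and 2.90% held at least 2. The HIF core was matched 2 times in HES1 (119 to 115 and 46 to 42 bases before the start), once each in NOTCH3, JAG2, DLL4 and NRARP, 2 times in NOTCH1, 4 times in JAG1 and not in NOTCH2 or RBPJ, and 43.2% of all windows held it. Whether the HIF core bears on the direction of a member's change was not tested. Only the window at the RefSeq gene start was searched, and which start these cells use was not tested. The boxes bound by HES and HEY repressors were searched as well, and the E-box (CACGTG) was found in none of the 9 windows and in 6.34% of all windows. The N-box (CACNAG) was found 3 times in HES1 and once each in NOTCH3 and RBPJ, and in 32.0% of all windows. A match is a description of these letters only.

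Set against vehicle at 20% O2, the 32-134D libraries at 1% O2 were higher in HES1 and HEY1, the 2 targets that had risen most in hypoxia. HES1 was 1.62-fold higher than in vehicle at 20% O2 (log2 fold change 0.70, SE 0.09, edgeR FDR 0.000188), and HEY1 was 2.24-fold higher (1.16, SE 0.30, edgeR FDR 0.0247). These were 2 of the 10 members called higher, against 3.0% of all genes tested (3.52% in either direction). By edgeR 0 were called lower, against 0.516%, and DESeq2 also called 0, while 2 (JAG1 and NOTCH3) were lower at an unadjusted p under 0.05. The HEY1 call was lost without replicate 1 of vehicle at 20% O2 (0.98, edgeR FDR 0.0812), without replicate 2 (1.07, edgeR FDR 0.0792) and in a fit of only the 2 groups compared (1.19, edgeR FDR 0.0758), and without replicate 3 the value was 1.75.

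RBPJ was 0.24 higher on the log2 scale than in vehicle at 20% O2 (SE 0.07, edgeR FDR 0.039) and DLL4 was 0.37 higher (SE 0.12, edgeR FDR 0.0653), neither past both thresholds. With length and GC trends removed RBPJ was 0.12 higher (edgeR FDR 0.313) and DLL4 0.42 higher (edgeR FDR 0.031), again neither past both. In these 4 genes the lowest library with 32-134D was above the highest at 20% O2, and for the other 6 members the groups overlapped, against 17.0% of all genes higher, 12.8% lower and 29.8% in either direction without overlap. NOTCH3 differed by -0.26 (95% interval -0.47 to -0.05, edgeR FDR 0.143) and NOTCH2 by -0.21 (-0.51 to 0.09, edgeR FDR 0.432), and these intervals reach down to a remaining difference of those sizes. JAG1 differed by -0.20 (edgeR FDR 0.191), NRARP by -0.17 (edgeR FDR 0.413), NOTCH1 by -0.14 (edgeR FDR 0.669) and JAG2 by -0.01 (edgeR FDR 0.964).

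Set against each other per exon length, the members changed order with oxygen. The CPM used for this order keep the length and GC trends, and an order without them was not computed. In vehicle at 20% O2 NOTCH3 (34.0 CPM per kb), JAG1 (27.9) and HES1 (26.5) led, each neighbour overlapping the next, followed by NRARP (11.9), RBPJ (9.91), JAG2 (5.71), DLL4 (4.64), NOTCH1 (4.41), NOTCH2 (3.25) and HEY1 (0.260). NRARP overlapped RBPJ, DLL4 overlapped NOTCH1 and NOTCH1 overlapped NOTCH2. In vehicle at 1% O2 HES1 led with 116.8 CPM per kb, followed by JAG1 (21.9), RBPJ (19.1), NRARP (14.5), NOTCH3 (11.7), DLL4 (10.0), JAG2 (6.95), NOTCH1 (3.59), HEY1 (1.73) and NOTCH2 (1.43), and no neighbours overlapped. With 32-134D the order was HES1 (43.0 CPM per kb), NOTCH3 (28.4), JAG1 (24.3), RBPJ (11.7), NRARP (10.7), DLL4 (5.97), JAG2 (5.70), NOTCH1 (3.99), NOTCH2 (2.79) and HEY1 (0.682). There RBPJ overlapped NRARP, DLL4 overlapped JAG2 and NOTCH1 overlapped NOTCH2. NOTCH3 thus went from the top to the middle of this order and back to just below HES1.

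The genes whose pattern was most like that of a member over the 9 libraries were found by the root mean square (RMS) difference of centred log2 CPM. The search covered 13855 genes with a symbol and a mean of at least 1 CPM. It left out the members and the other Notch pathway genes described below, so likeness between Notch genes was not read. For NOTCH3 the closest genes were LRP1 and NUP210 (RMS 0.05 each), for HES1 CNOT8 and CLK3 (0.08 each), for RBPJ PHLDB3 and REXO4 (0.03 each) and for DLL4 FASTKD5 (0.08). HEY1 was matched less closely, by ADORA2B (0.24) and VLDLR (0.25), and had no gene within 0.2, while HES1 had 100, NOTCH3 318 and RBPJ 2412. HEY1 held only 9, 4 and 41 counts in vehicle at 20% O2, and the part of low counts in its distances was not tested. For NOTCH2 the genes were ERV3-1 (0.09) and SLC45A4 (0.10). LRP1 read 274, 400 and 419 CPM in vehicle at 20% O2, 119, 120 and 116 CPM in vehicle at 1% O2, and 288, 312 and 282 CPM with 32-134D, a course close to that of NOTCH3.

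The rest of the pathway was read from 7 lists of 55 other genes, all of which were tested. In hypoxia 14 were called higher and 11 lower, and with 32-134D 9 were higher and 9 lower, so 25 and 18 of 55 were called, against 39.7% and 29.9% of all genes tested. The counts by role below stand against the same shares by direction as the members, 19.5% of all genes higher and 20.3% lower in hypoxia, and 16.2% higher and 13.7% lower with 32-134D, and nothing is read from counts near them. The median log2 fold changes of the 55 genes were 0.13 and -0.01. Changes were thus spread over both directions, and the co-activators held the largest of them among genes with more than 3 counts in some library of each group.

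Mastermind co-activators bridge the Notch intracellular domain and RBPJ to histone acetylation. MAML2 read 3.73, 3.61 and 4.32 CPM in vehicle at 20% O2, 0.318, 0.613 and 0.657 CPM in vehicle at 1% O2, and 4.54, 3.57 and 4.76 CPM with 32-134D. MAML3 read 12.5, 13.5 and 16.2 CPM, then 2.17, 1.70 and 2.04 CPM, then 12.1, 12.8 and 29.9 CPM in the same groups. Both fell in vehicle at 1% O2, where their libraries overlapped none of the others, and replicate 3 of 32-134D was high for MAML3. MAML1, more abundant than both, went the other way, with means of 73.6, 109.2 and 82.1 CPM in the same groups. Its log2 fold changes of 0.57 (edgeR FDR 3.7e-05) and -0.41 (edgeR FDR 0.000737) were under the fold change threshold. The log2 fold changes of MAML2 were -2.95 (SE 0.26, edgeR FDR 2.29e-07) in hypoxia and 3.06 (SE 0.25, edgeR FDR 2.25e-07) with 32-134D, and those of MAML3 were -2.83 (SE 0.32, edgeR FDR 2.56e-06) and 3.18 (SE 0.31, edgeR FDR 1.1e-06). SNW1, an RBPJ-binding co-activator and splicing factor, moved the other way, by 1.20 and -0.84. MAML2, MAML3 and SNW1 were the called genes of 7 co-activators, with 1 higher and 2 lower in hypoxia and the reverse with 32-134D.

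Of 9 co-repressors, 3 were called higher and 2 lower in hypoxia, and 2 higher and 3 lower with 32-134D. SPEN, a scaffold that RBPJ binds to repress its targets, fell by 0.84 on the log2 scale and rose by 0.83, and neither passed the fold change threshold with length and GC trends removed (-0.29 and 0.33). CIR1, another RBPJ co-repressor, changed the opposite way with 1.41 and -1.02, as did TLE3, a Groucho co-repressor used by HES proteins, with 1.55 and -1.01.

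**Figure D5:**
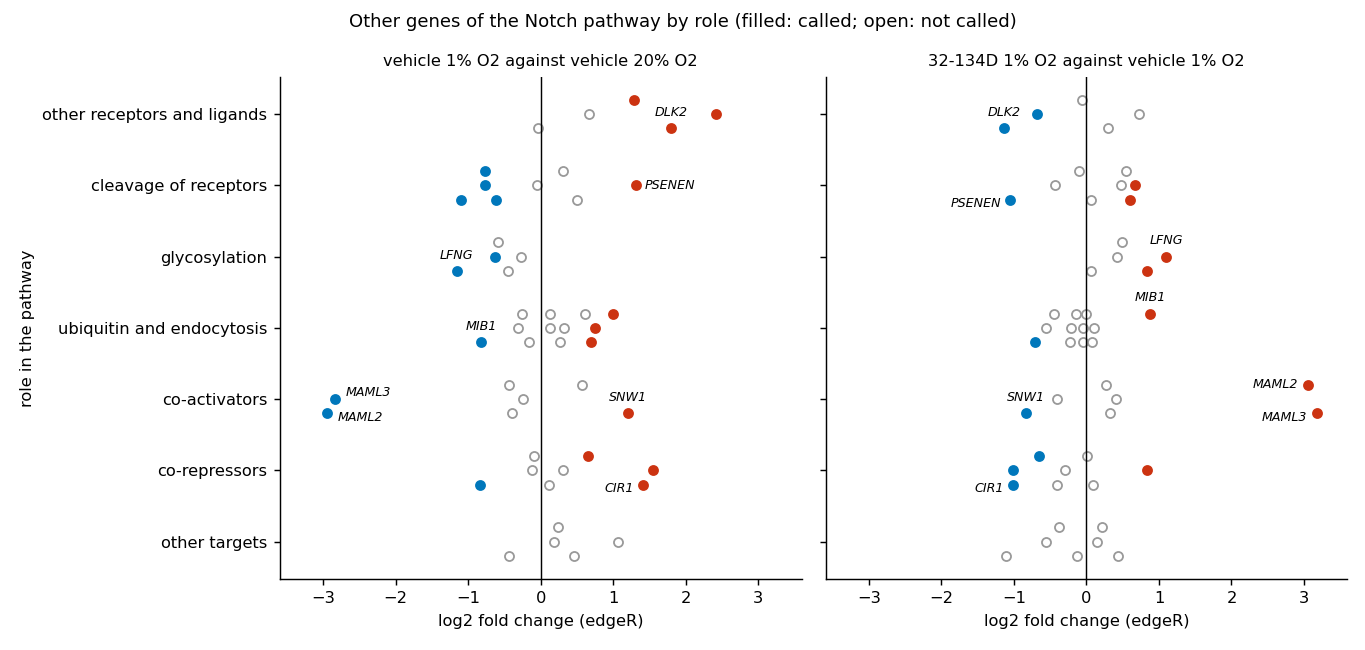
Log2 fold changes of the other pathway genes by role (rows) in hypoxia (left) and with 32-134D (right), with filled points for called genes and open points for genes not called. HES5, HES7 and HEY2 are left out at left, and HES5 at right, because a group had at most 3 counts in every library. MAML2 and MAML3 are the farthest points on both sides, near -3 and 3, with PSENEN, CIR1 and SNW1 on the opposite side.

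Among 9 genes that cut the receptors, 2 were higher and 4 lower in hypoxia, and 2 were higher and 2 lower with 32-134D. PSENEN, a γ-secretase subunit, read 22.7, 15.2 and 15.4 CPM in vehicle at 20% O2, 45.4, 43.0 and 45.4 CPM in vehicle at 1% O2, and 23.0, 20.6 and 20.9 CPM with 32-134D. It rose in hypoxia by 1.32 on the log2 scale (edgeR FDR 5.96e-07) and fell with 32-134D by 1.05 (edgeR FDR 5.96e-06). PSEN2, a catalytic subunit, changed by -0.77 and 0.60, in the opposite directions. Its 32-134D call was lost without replicate 2 of either group (0.53 and 0.58). PSEN2 read 16.3, 14.6 and 16.4 CPM, then 9.86, 8.20 and 9.82 CPM, then 14.6, 14.6 and 13.4 CPM in the same groups, and its vehicle libraries at 1% O2 lay below all others. ADAM10, the protease of the first ligand-dependent cut, had means of 198, 129.5 and 205 CPM in the same groups. It was called lower in hypoxia (-0.61, edgeR FDR 1.54e-06), and the value with length and GC trends removed is not given here. With 32-134D it rose by 0.67, a call lost with those trends removed (0.20). APH1B, a scarce γ-secretase subunit, was at -1.10 in hypoxia (edgeR FDR 0.0312), and its call was lost with DESeq2 and without each of 4 libraries (replicates 1 and 3 of both vehicle groups).

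Both called genes of 5 that glycosylate the receptors fell in hypoxia and rose with 32-134D. LFNG, a Fringe enzyme that tunes receptors towards Delta ligands, changed by -1.16 and 1.10 (edgeR FDR 0.000729 and 0.000974), and POGLUT1, a protein O-glucosyltransferase, by -0.62 and 0.84, where the first was -0.56 and not called without replicate 2 of vehicle at 1% O2. Replicate 3 of 32-134D was high for both genes, with LFNG at 5.79, 5.12 and 10.6 CPM and POGLUT1 at 23.5, 23.0 and 36.6 CPM in that group. Without each library in turn, the 32-134D values reached down to 0.73 for LFNG and 0.59 for POGLUT1. Of 12 genes of ubiquitin transfer and endocytosis, 3 were higher and 1 lower in hypoxia, and 1 was higher and 1 lower with 32-134D. MIB1, the ligase that lets signal-sending cells internalise their ligands, changed by -0.82 and 0.88 (edgeR FDR 2.64e-06 and 2.14e-06). NUMBL, a Numb-like endocytic adaptor, changed by 1.00 and -0.71, and the Deltex ligases DTX3L and DTX2 were higher in hypoxia by 0.75 and 0.69. Scaling by total library size ended both Deltex calls (0.53 and 0.48) and the NUMBL call with 32-134D (-0.52), and requiring 10 counts in every library ended that of DTX2 (0.58).

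Of the 5 other receptors and ligands, DLL1, DLK2 and DLL3 were higher in hypoxia, and DLK2 and DLL3 were lower with 32-134D. DLK2, a Delta-like protein without the motif that activates receptors, read 1.79, 1.26 and 2.28 CPM at 20% O2, 7.05, 7.45 and 5.84 CPM in vehicle at 1% O2, and 2.69, 2.56 and 4.12 CPM with 32-134D, with log2 fold changes of 1.80 and -1.13 (edgeR FDR 9.68e-06 and 0.000308). DLL1, a canonical ligand, had 2, 1 and 4 counts at 20% O2, 15, 24 and 22 in vehicle at 1% O2, and 19, 21 and 56 with 32-134D. It was thus called higher than in vehicle at 20% O2 both without and with the compound (edgeR FDR 0.0242 and 0.0205), at low counts. The first call was lost without replicate 1 or 3 of vehicle at 20% O2 or replicate 2 of vehicle at 1% O2 (edgeR FDR 0.0695, 0.141 and 0.0719), and the second without any 1 of the vehicle replicates at 20% O2 (edgeR FDR 0.0611, 0.063 and 0.149). The second log2 fold change was 3.13, and 2.18 without replicate 3 of 32-134D. DLL3 was at 1.29 and -0.68, and its second call was lost in 11 of the alternatives, 6 of which left out 1 library (every one but replicates 2 and 3 of vehicle at 20% O2 and replicate 3 of 32-134D). DLK1 (0.67 and -0.06) and NOTCH4 (-0.04 and 0.30) were not called.

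Of the 8 other genes listed as targets, HES7 and HEY2 were called higher in hypoxia and none was called lower, and both were nearly absent at 20% O2. Whether each listed gene is a Notch target in these cells was not tested. The HEY2 call was lost with DESeq2 and without replicate 1 or 3 of vehicle at 20% O2 or replicate 2 of vehicle at 1% O2. HES6 was lower in hypoxia with an edgeR FDR of 0.00126, but under the fold change threshold. With 32-134D 0 were called by edgeR or by DESeq2. HES6 was then higher (edgeR FDR 0.00145) and HES4 lower (edgeR FDR 0.00682), both again under the fold change threshold. HES7 had 1, 0 and 3 counts in vehicle at 20% O2, 19, 10 and 10 in vehicle at 1% O2, and 16, 13 and 13 with 32-134D, at least 1.70-fold higher in hypoxia and at least 1.91-fold higher with 32-134D than at 20% O2 against a floor of 3 counts per library. The latter call was lost without replicate 3 of vehicle at 20% O2 (edgeR FDR 0.0512). HEY2 had 0, 0 and 1 counts, then 6, 5 and 5, then 2, 1 and 4. Its lower bound in hypoxia against the same floor was 0.730-fold, so no rise is established against that floor. HES5 had none at 20% O2 and at most 5 in any library. HES4 (0.25 and -0.37) and HES6 (-0.44 and 0.43), the best measured of the others, moved in opposite directions and were not called, and HES2, HEYL and DTX1 were not called in either comparison. Against vehicle at 20% O2, DLL1 and HES7 were the 2 of 55 pathway genes called higher with 32-134D, a share near the 3.0% of all genes. By edgeR 0 were called lower, and DESeq2 also called 0. FURIN (edgeR FDR 0.0283) and RFNG (edgeR FDR 0.012) were lower but under the fold change threshold. TLE2 was lower only at an unadjusted p under 0.05 (edgeR FDR 0.151).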

How the data were processed

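RNA-seq of 9 Hep3B cultures was used, with 3 libraries in each of 3 groups. The authors deposited raw counts per Ensembl gene, without normalization, made with FastQC, Bbduk, STAR, featureCounts and an Ensembl annotation of GRCh38. The strand setting and the tool versions are not given in the sources used here, so reads of overlapping antisense genes may be included. The 9 columns were matched to samples by name, and 0 were left unmapped.

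From these counts, edgeR 4.0.16 in R 4.3.3 (TMM scaling, quasi-likelihood test, 1 fit of all 9 libraries, groups only) tested 22672 genes whose counts summed to 10 or more and gave a Benjamini-Hochberg FDR over all of them. A call took both an FDR below 0.05 and a change of more than 1.5-fold. The common biological coefficient of variation was 10.5%. Alternatives were DESeq2 1.42.0, other scalings, filters and fold change thresholds, fits of 2 groups, a replicate block and fits without each library, and the removal of trends over transcript length and GC content was added after seeing the data. Gene positions and exon lengths came from GENCODE 29 on GRCh38, an earlier release than the counts use, and promoters from RefSeq.

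The members and lists were chosen with earlier results of these data known. All members are named, and of each other pathway list up to 4 called genes per comparison, by size of the log2 fold change, with any receptor, ligand or target. A few other values, such as those of MAML1 and of ADAM10 in hypoxia, are given outside this rule. Stellate, endothelial and hepatocyte markers are given in the report. Cholangiocyte markers (6 genes) summed to 1655 to 1931 CPM in vehicle at 20% O2, 2181 to 2437 in vehicle at 1% O2 and 1700.0 to 1757 with 32-134D, and leukocyte markers (6 genes, CD3E and MS4A1 at 0) to 27.1 to 33.8, 9.04 to 11.7 and 14.2 to 24.0 CPM. Most of the cholangiocyte sum was SOX4, EPCAM and KRT19. In hypoxia 0 of the 6 were called higher and 1, the scarce CFTR, was called lower (-2.71, edgeR FDR 0.00184). With 32-134D CFTR was called higher and KRT19 lower. Most of the leukocyte sum was LYZ, with means of 27.2, 8.62 and 17.5 CPM, called lower in hypoxia and higher with 32-134D, as was CD14. In simulated counts of the hypoxia comparison (22128 genes, 100 changed by each fold), edgeR recovered 69% of 2-fold and 87% of 4-fold changes, and 5.45% of calls were false. In the 32-134D comparison (22087 genes) these were 69%, 87% and 7.69%. Folds against a group with at most 3 counts in every library are lower bounds, which cover counting error only. A few single genes are neither reported nor plotted here.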

Additional observations from a re-analysis of the deposited data

How the results depend on the processing

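The 6 members called in hypoxia kept their calls and directions with RLE scaling, scaling by total library size, DESeq2, no filter on low counts, 2-group fits and without any 1 library. With trends over transcript length and GC content removed, an alternative added after seeing the data, 1 member was lower in hypoxia and 1 higher with 32-134D (NOTCH3 in both), and the signs turned for NOTCH1 (0.31 in hypoxia, -0.29 with 32-134D and 0.0135 against vehicle at 20% O2), for JAG1 with 32-134D (-0.10) and for JAG2 against vehicle at 20% O2 (0.10), none of which was called in the main fit or after the removal. The cause was not tested. Total library size left 2 members lower with 32-134D, and 14 other pathway genes higher and 5 lower. A fold change above 2 left 1 member higher and 2 lower with 32-134D and 1 higher against vehicle at 20% O2. Among other pathway genes it left 5 lower in hypoxia, and 4 higher and 4 lower with 32-134D. Without a fold change threshold 18 were lower in hypoxia, 16 higher and 17 lower with 32-134D, and 6 higher and 2 lower against vehicle at 20% O2. Requiring 10 counts in every library removed HEY1 and left 1 member higher against vehicle at 20% O2, and 6 other pathway genes higher in hypoxia, 4 lower with 32-134D and 0 higher against vehicle at 20% O2, where fewer genes were tested. In the last comparison no filter gave 4, and DESeq2 gave 0 because DLL1 and HES7 had no adjusted p. In the 2-group fit against vehicle at 20% O2, 1 member was higher. Leaving out each library in turn gave 1 to 2 members and 0 to 4 other pathway genes higher in that comparison. There JAG2 was 0.0011 with RLE scaling, 0.0091 with no filter and -0.0465 to 0.0518 without each library, and NOTCH1 was -0.303 to 0.0298. The depth of the smallest library (6013980 counts) limits HEY1, HEY2, HES5, HES7 and DLL1.

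With the replicate number as a block, the counts of called members were the same (4 higher and 2 lower in hypoxia, 2 higher and 4 lower with 32-134D, 2 higher and 0 lower against vehicle at 20% O2), and other pathway genes higher in hypoxia went from 14 to 16. Correlations of same-numbered libraries' deviations ran from -0.144 to 0.062 over 13911 genes, so no clear effect shared by same-numbered libraries was seen. Whether the cultures were set up in matched rounds is not in the labels and was not tested.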
